A study of Homo sapiens with 12 samples.

Results

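THP1 monocytes that had shared medium with senescent endothelial cells (senECs) were compared here with THP1 monocytes that had shared medium with control ECs. The comparison used 3 libraries with senECs (replicates 1, 2 and 5) and 3 with control ECs (replicates 1, 2 and 3), chosen by their sample labels, so 6 of the 12 libraries of the study. THP1 is an established human leukaemia cell line of monocytic type and was labelled wild type in every group. The ECs were human umbilical vein endothelial cells, made senescent with etoposide, a drug that blocks topoisomerase II and breaks DNA, while control ECs had been given its solvent, DMSO. The senescence modelled is thus that of a drug, in 1 monocytic line. The monocytes (400000 per well) sat in an insert with 1 µm pores above 500000 ECs, so the cell types did not touch. After 24 h the THP1 cells were taken out and stimulated with 100 ng/ml lipopolysaccharide (LPS) for 2 h, in both groups and in the other libraries, so no unstimulated library stands beside them. The other 6 libraries, 3 of THP1 mono-culture and 3 of THP1 with EGCG-treated senECs, entered the model only for the estimate of the spread between replicates. The labels do not say whether replicates came from separate cultures, and p-values then measure only the spread between these libraries, which may be technical. In bulk RNA a smaller share of cells that express a gene and less RNA of it per cell cannot be told apart.

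Senescent cells stop dividing but keep secreting cytokines, chemokines, growth factors and vesicles, a mixture called the senescence-associated secretory phenotype, and monocytes next to such endothelium meet it as soluble signals. LPS reaches monocytes through CD14 and TLR4, which signal through MYD88 to NF-κB and switch on cytokine and chemokine genes within hours. Monocytes also balance their cholesterol. SREBF2 encodes the factor that switches on the genes of cholesterol uptake and synthesis when sterols are low, and INSIG1 holds that factor back when sterols are plentiful.

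The total counts per library ran from 18456396 to 22092600 with control ECs and from 17441273 to 19126426 with senECs. Markers of monocytes were present (SPI1 at 265 to 385 CPM and CD36 at 167 to 262 CPM over the 6 libraries), where CPM stands for counts scaled to the library size after TMM normalization. Of the defining markers of ECs, CDH5 had 2 counts in all 12 libraries together and VWF lay between 0.405 and 1.36 CPM. The 19 tested genes of the endothelial list of 24 summed to 32.3 to 41.1 CPM with control ECs and to 35.5 to 44.2 CPM with senECs, of which EGFL7 alone gave 20.7 to 30.4 CPM. One library stood apart. Control ECs 2 held 10897 CPM of mitochondrial ribosomal RNA against 2311 to 4532 CPM in the other 11 libraries, and 185 CPM of histone gene transcripts against 41.8 to 61.4 CPM. It also held 1714 CPM of the nuclear RNAs MALAT1 and NEAT1 against 463 to 794 CPM elsewhere. In senECs 5 a count was seen for 23418 genes, against 24583 to 26229 in the other 5 libraries compared. The TMM factor, which multiplies the library size, was lowest in senECs 5 at 0.912, against 0.957 to 1.04 in the other 11 libraries.

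**Figure D1:**
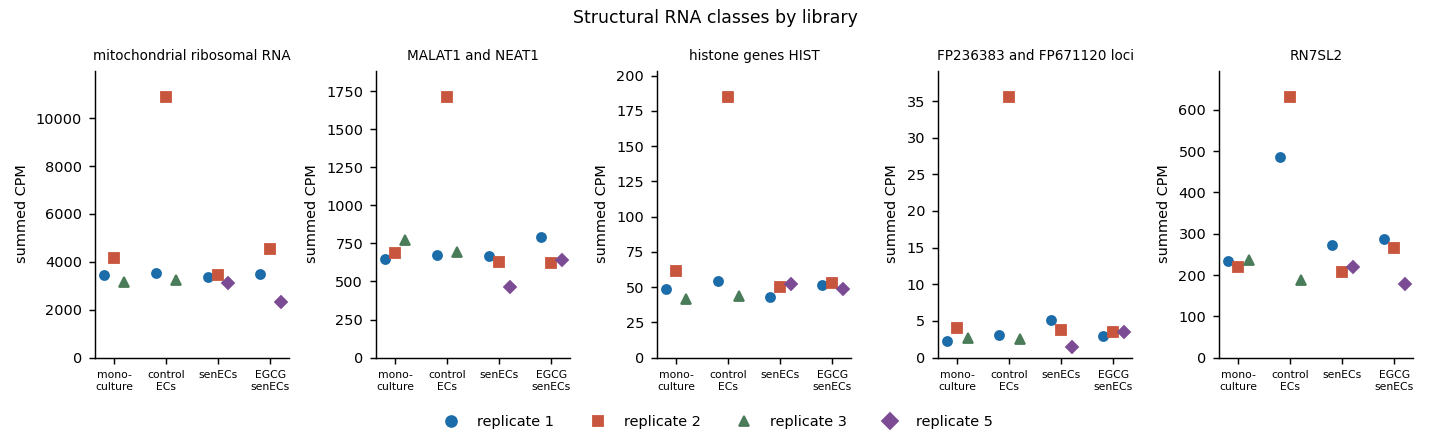
Summed CPM (vertical axes, linear, from 0) of 5 RNA classes in each of the 12 libraries by group; each point is a library and its shape and colour give the replicate number. Control ECs 2 lies above all other libraries in each of the 5 panels, for example at 10897 CPM of mitochondrial ribosomal RNA, and control ECs 1 is second for RN7SL2 at 486 CPM.

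No gene differed between senECs and control ECs after adjustment. Over 25873 genes that reached 10 counts across the libraries, edgeR's quasi-likelihood test with Benjamini-Hochberg adjustment called 0 (0% of the genes tested) at an adjusted p of 0.05, and the smallest adjusted p was 0.728. DESeq2 also called 0. An unadjusted p under 0.05 was reached by 1709 genes (6.61%) in edgeR and by 1417 in DESeq2. In edgeR 740 of them had higher levels with senECs (2.86% of the genes tested) and 969 lower levels (3.75%). This number rested on single libraries. It was 717 without senECs 5, 898 without control ECs 2 and 2910 without senECs 1. In 2840 genes (11%) the values of the groups did not overlap, with all senEC libraries above all control libraries in 1375 (5.31%) and below them in 1465 (5.66%). The data also bounded the differences. The 95% interval of the fold change lay wholly within 2-fold in either direction for 12630 genes, and for 12559 of the 14711 genes with a mean of at least 1 CPM in the higher group. Of these 14711 genes 8147 (55.4%) were higher with senECs. An unadjusted p under 0.05 in edgeR was reached with higher levels by 619 of them and with lower levels by 593. All senEC libraries lay above all control libraries in 1011 of them and below in 805. Every value named hereafter belongs to a gene that missed the adjusted threshold, so verbs of change are not used. With a term for the replicate number, which the labels do not explain, edgeR called 153 genes (0.591%), 90 of them with lower levels (0.348%), and 9 once control ECs 2 was left out. Those fits took the spread of each gene almost wholly from a trend over all genes, as described at the end.

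Genes of cholesterol uptake and synthesis mostly had lower levels after co-culture with senECs. Of the 28 genes of this list 27 were tested, 21 had lower levels with senECs and 6 higher levels, and the median log2 difference was -0.20 against -0.01 over all genes tested. An unadjusted p under 0.05 with a lower level was reached by 8 of the 27, where 3.75% of all genes tested did so. The groups did not overlap for 9 of them, 8 lower (5.66% of all genes tested) and 1 higher (EBP, the sterol isomerase, against 5.31% of all genes). All 27 intervals lay within 2-fold, and none of the genes passed the adjusted threshold. The median was -0.23 between the libraries numbered 1, -0.19 between those numbered 2 and -0.09 between senECs 5 and control ECs 3. SenECs 5 and control ECs 3 share no number. They are the libraries left over, and the labels do not pair them, so the 3 pairs used here and below are not 3 matched replicates. Without control ECs 2 the list median was -0.18, with 21 genes lower and 5 at an unadjusted p under 0.05, and without senECs 5 it was -0.19, with 21 lower and 6 at that level.

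INSIG1, the sterol-sensing anchor of the SREBP system, lies at chr7:155297776-155310235 on the plus strand (GRCh38, GENCODE release 29). INSIG1 was at 80.3, 82.3 and 80.6 CPM with control ECs and at 48.7, 58.1 and 67.9 CPM with senECs. The control libraries lay close together, and the senEC libraries were spread more widely below them. The means were 81.1 ± 1.07 and 58.2 ± 9.6 CPM (SD, n = 3), a log2 difference of -0.48 (SE 0.12, 95% interval -0.74 to -0.22, unadjusted p = 0.00101, edgeR adjusted p = 0.728). It lay between -0.60 and -0.38 with each of the 12 libraries left out in turn. In mono-culture INSIG1 was at 70.4, 72.5 and 79.2 CPM and with EGCG-treated senECs at 61.8, 74.5 and 83.7 CPM, so all mono-culture values lay between those of the co-cultures compared. STARD4, which carries cholesterol between membranes, was at 104, 117 and 128 CPM against 86.2, 82.5 and 83.9 CPM, a log2 difference of -0.46 (SE 0.12). SREBF2 itself was at 295, 318 and 274 CPM against 248, 257 and 221 CPM, a log2 difference of -0.29 (SE 0.10). In these genes, too, the groups did not overlap. LPIN1, a phosphatidate phosphatase of lipid synthesis, showed the same order at 19.2, 25.8 and 21.1 against 16.3, 18.2 and 15.1 CPM, a log2 difference of -0.41 (SE 0.14). The enzymes of the pathway differed less. SQLE, the squalene epoxidase, differed by -0.29 (SE 0.12) on the log2 scale and HMGCS1, an early enzyme of the mevalonate pathway, by -0.25 (SE 0.12), and in both the groups overlapped. FDFT1, the squalene synthase, differed by -0.20 (SE 0.11) and IDI1, an isomerase of isoprenoid units, by -0.19 (SE 0.14), with no overlap. FDPS, MVD, SCAP and IDH1 had log2 differences between -0.00 and 0.11.

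**Figure D2:**
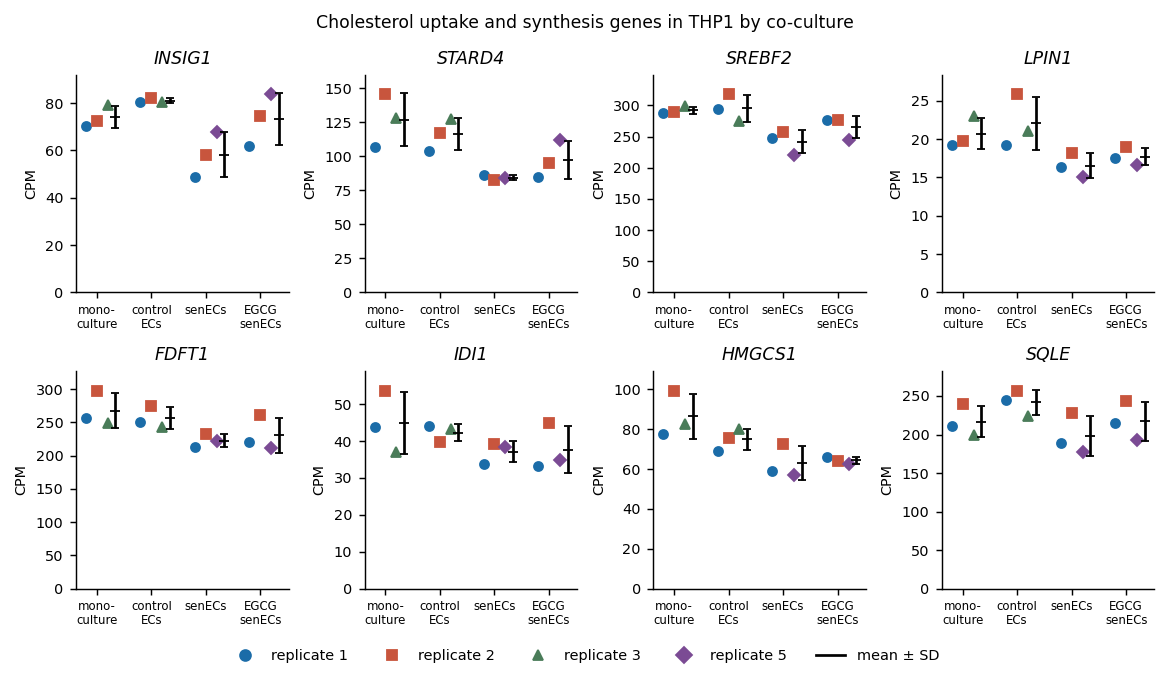
CPM (vertical axes, linear, from 0) of 8 genes of cholesterol uptake and synthesis in each library of the 4 groups, with the mean ± SD of each group (n = 3) in black; point shapes give the replicate number. For INSIG1, STARD4, SREBF2, LPIN1, FDFT1 and IDI1 every point with senECs lies below every point with control ECs, while the points of HMGCS1 and SQLE overlap.

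The promoters of 3 of these genes are shown with their matches to the motifs described next. Among 28 list genes 21 had an entry in the RefSeq promoter set (GRCh38.p14). In the 250 bases before each RefSeq start, the letters TCACNCCAC, a sterol regulatory element, and CCAAT, the box of NF-Y, were searched on both strands. SREBF2 alone among the 21 genes held the first motif, which 0.883% of all 35116 windows hold. Of the 21 genes 17 held the second in at least 1 of their windows, and 32% of all windows hold it. The 21 genes have 29 windows together, so the count per gene is not a like measure to the share per window. The motifs do not overlap in the sequences here. Capitals mark them, and each sequence runs 5′ to 3′ on the gene's strand up to the base before the GENCODE start. SREBF2 is chr22:41832855-41833078 on the plus strand, INSIG1 is chr7:155297628-155297775 on the plus strand and STARD4 is chr5:111512591-111512785 on the minus strand.
SREBF2: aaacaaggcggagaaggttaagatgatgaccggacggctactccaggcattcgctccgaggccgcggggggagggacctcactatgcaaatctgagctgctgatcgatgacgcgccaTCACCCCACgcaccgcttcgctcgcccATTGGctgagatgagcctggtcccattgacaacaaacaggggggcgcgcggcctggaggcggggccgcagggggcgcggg
INSIG1: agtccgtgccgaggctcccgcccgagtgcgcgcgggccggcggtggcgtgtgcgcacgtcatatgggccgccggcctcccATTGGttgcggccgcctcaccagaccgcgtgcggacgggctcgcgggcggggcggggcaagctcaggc
STARD4: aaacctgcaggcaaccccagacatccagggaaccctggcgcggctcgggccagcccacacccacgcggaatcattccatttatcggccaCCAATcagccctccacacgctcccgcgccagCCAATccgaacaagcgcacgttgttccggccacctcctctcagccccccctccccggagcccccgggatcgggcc
The sterol regulatory element of SREBF2 (TCACCCCAC) starts 133 bases before the RefSeq start and its CCAAT box, read on the other strand, 106 bases before. INSIG1 holds 1 CCAAT box on the other strand and STARD4 holds 2 on its own strand. A match describes the letters and no more.

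Messenger RNAs of the mitochondrial genome had higher levels with senECs, and its ribosomal RNAs did not. All 13 protein-coding mitochondrial genes had higher levels, and the groups did not overlap for 7 of them, as they did with higher levels in 5.31% of all genes tested. The list of 15 genes, which holds the 2 ribosomal RNAs too, had a median log2 difference of 0.22 in the model, 0.23 between the libraries numbered 1, 0.16 between those numbered 2 and 0.28 between senECs 5 and control ECs 3. MT-CO2, a core subunit of cytochrome oxidase, was at 2768, 2765 and 2931 CPM with control ECs and at 3419, 3220 and 4003 CPM with senECs, a log2 difference of 0.33 (SE 0.13, unadjusted p = 0.0193). MT-ND2, a complex I subunit, was at 1251, 1207 and 1344 against 1559, 1356 and 1706 CPM, a log2 difference of 0.28 (SE 0.13). Their groups did not overlap, and neither gene passed the adjusted threshold. Without control ECs 2 the list median was 0.17, and without senECs 5 it was 0.16, with 13 of 15 genes higher each time. MT-RNR1, the small ribosomal RNA, had a log2 difference of -1.52 (SE 0.49) that was -0.19 without control ECs 2. It was at 778, 3547 and 484 CPM with control ECs and at 646, 593 and 437 CPM with senECs. The levels with EGCG-treated senECs reached beyond both groups, from 2559 to 4017 CPM for MT-CO2.

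The nuclear subunits of the respiratory chain were nearly all higher as well, but less evenly across the libraries. Of complex I 35 of 38 subunits were higher (median log2 difference 0.22), and of complexes II to V all 39 (median 0.24), with 12 of the 39 at an unadjusted p under 0.05 (2.86% of all genes tested with higher levels). Of the 14711 genes with a mean of at least 1 CPM 8147 (55.4%) were higher, 619 of them at that level. COX8A, a small cytochrome oxidase subunit, was at 106, 89.9 and 96.8 CPM with control ECs and at 112, 111 and 147 CPM with senECs. The median of complexes II to V was 0.03 between the libraries numbered 1, 0.24 between those numbered 2 and 0.39 between senECs 5 and control ECs 3, and it was 0.08 without senECs 5. Cytosolic ribosomal proteins showed the same order. Of 79 genes 78 were higher, with medians of 0.24 in the model and 0.01, 0.27 and 0.38 in the 3 pairs of libraries. Without senECs 5 the ribosomal median was 0.03, with 56 genes higher and 23 lower. The proteasome (38 of 40 higher, median 0.21) and the reference genes, which are often taken as constant (14 of 14 higher, median 0.18, with GAPDH at 802 to 934 CPM against 927 to 1262 CPM), showed similar medians, which were 0.08 and 0.04 without senECs 5.

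**Figure D3:**
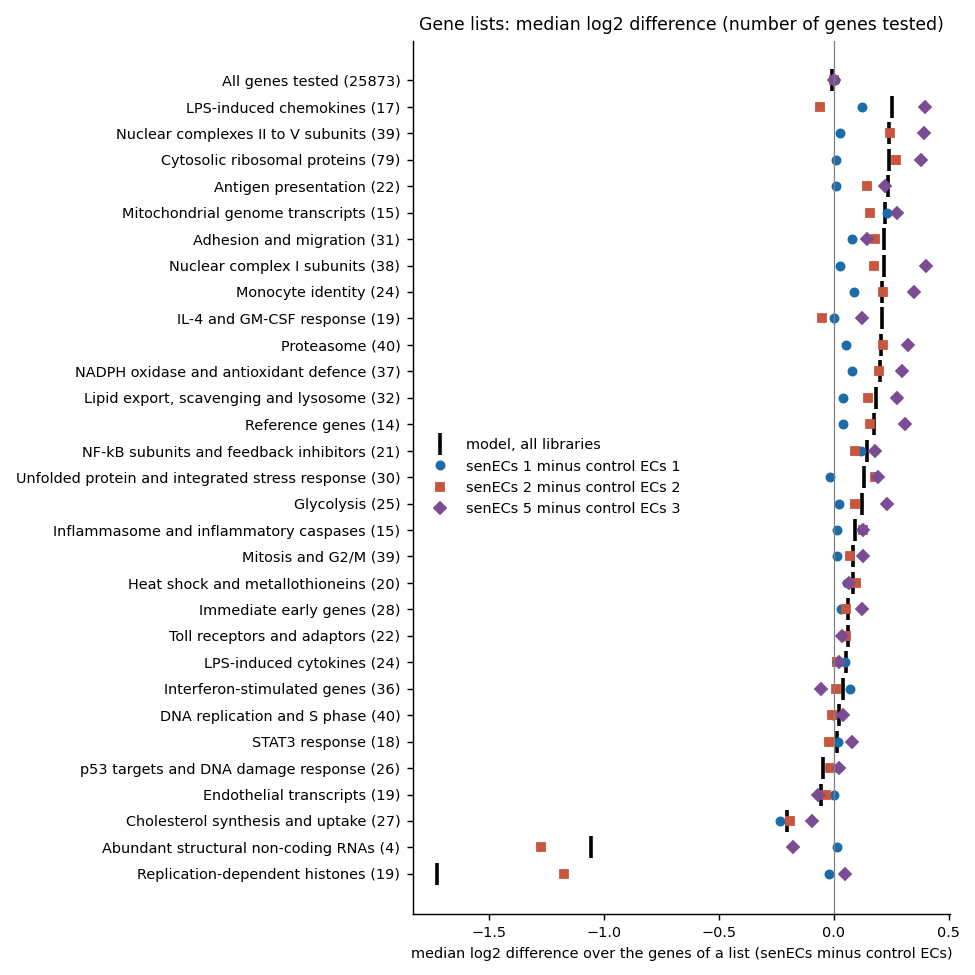
Median log2 difference (senECs minus control ECs, horizontal axis) over the tested genes of each of 30 lists and over all genes tested, with the number of genes in brackets; black ticks give the model and points the differences between single libraries on log2(CPM + 2). The cholesterol list is negative in each of the 3 pairs (-0.23, -0.19 and -0.09) and the mitochondrial genome list positive in each (0.23, 0.16 and 0.28), while the medians of ribosomal proteins spread from 0.01 to 0.38.

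Gene length moved with these values. In 4 classes of equal size by exon length, the median log2 difference went from 0.12 in the shortest genes (53 to 2777 bases) through 0.07 and 0.01 to -0.06 in the longest (7143 to 205012 bases). With senECs 66.1% of the shortest genes and 36.3% of the longest were higher. In the libraries numbered 1 the medians lay between 0.00 and 0.03, and between senECs 5 and control ECs 3 they went from 0.15 to -0.13. With an offset for gene length the ribosomal median was 0.16 and that of complexes II to V 0.18, while that of the cholesterol list was -0.23, with 22 of 27 genes lower and 11 at an unadjusted p under 0.05. LYST, a regulator of lysosome size with very long transcripts, was at 1403, 1340 and 1331 CPM with control ECs and at 1307, 1007 and 788 CPM with senECs. PRKDC, a DNA repair kinase that is also long, was at 1943, 1803 and 1834 against 1841, 1468 and 1189 CPM. In both genes senECs 5 had the lowest of the 6 values. The part of length in the list medians was not tested beyond this offset.

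**Figure D4:**
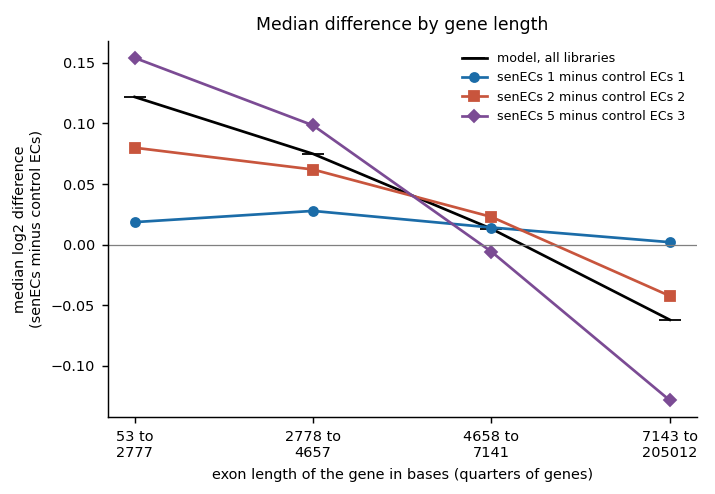
Median log2 difference (senECs minus control ECs, vertical axis) in 4 classes of genes by exon length in bases (horizontal axis), 3663 genes each, for the model (black) and for 3 pairs of libraries. The medians decrease with length in the model (0.12 to -0.06) and most steeply between senECs 5 and control ECs 3 (0.15 to -0.13), and are nearly flat between the libraries numbered 1.

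Among genes of inflammatory signalling, GSDMD, PYCARD and MYD88 had higher levels with senECs. PYCARD and MYD88 were named after their values were seen. Of 22 Toll receptors and adaptors 15 were higher (median log2 difference 0.06), 2 of them without overlap (5.31% of all genes tested). Of the 14711 genes with a mean of at least 1 CPM 55.4% were higher. GSDMD, the pore-forming protein of pyroptosis, was at 92.2, 93.5 and 97.3 CPM with control ECs and at 110, 128 and 156 CPM with senECs, a log2 difference of 0.48 (SE 0.12, unadjusted p = 0.000919, edgeR adjusted p = 0.728). PYCARD, the adaptor that joins inflammasome sensors to caspase 1, was at 41.4, 35.0 and 42.4 against 43.8, 47.0 and 58.3 CPM, a log2 difference of 0.33 (SE 0.12). MYD88 was at 54.4, 54.4 and 60.0 against 63.5, 65.4 and 67.9 CPM, a log2 difference of 0.22 (SE 0.11, 95% interval -0.002 to 0.446, edgeR unadjusted p = 0.0515). In these 3 genes the groups did not overlap. The sensor NLRP3 differed by 0.04 (95% interval -0.16 to 0.23). Of the 15 inflammasome genes 10 had higher levels with senECs, with a median log2 difference of 0.10 that was 0.00 without control ECs 2, and 3 reached an unadjusted p under 0.05, all higher (2.86% of all genes tested), the third being CASP5 at 1.16 CPM or less.

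CD14, the LPS co-receptor, had the smallest p of the monocyte list. It was at 12.4, 18.0 and 26.2 CPM with control ECs and at 16.6, 32.3 and 65.7 CPM with senECs, a log2 difference of 1.02 (SE 0.40, 95% interval 0.18 to 1.85) that was 0.37 without senECs 5. The groups overlapped, and the level was 0.36, 0.78 and 1.26 higher on the log2(CPM + 2) scale in the 3 pairs of libraries. The last pair, senECs 5 and control ECs 3, shares no replicate number. S100A9, the alarmin partner of S100A8, varied several-fold within each group, at 156, 231 and 672 CPM with control ECs, at 212, 434 and 1423 CPM with senECs and at 71.7, 99.1 and 206 CPM in mono-culture. Its log2 difference of 0.96 (SE 0.60) became -0.13 without senECs 5, and that of S100A8 went from 1.30 (SE 0.84) to -0.62. Without control ECs 3 these differences were 1.83 and 2.61. Outside the list, VIM, the intermediate filament vimentin, had a log2 difference of 1.02 (SE 0.37), with 9.07, 11.1 and 21.3 against 13.9, 25.2 and 44.6 CPM. Of the 24 monocyte genes tested 22 were higher, with a median of 0.21 that was 0.03 without senECs 5, when 14 were higher. Without control ECs 3 the median was 0.33, with 22 higher.

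The secreted products of LPS stimulation mostly overlapped between the groups. Of 17 chemokines tested 14 had higher levels with senECs (median log2 difference 0.26), but without senECs 5 the median was -0.35 and 2 were higher. Of 24 cytokines 13 were higher and 11 lower, with a median of 0.06 that was -0.51 without senECs 5. Leaving out control ECs 3 instead gave medians of 0.68 for the chemokines and 0.47 for the cytokines. Between the libraries numbered 1 and those numbered 2 the medians were 0.12 and -0.06 for chemokines. For cytokines they were 0.05 and 0.01. IL1B was at 142, 231 and 672 CPM with control ECs and at 172, 235 and 866 CPM with senECs, a log2 difference of 0.28 with a 95% interval from -1.02 to 1.59. That difference was -0.78 without senECs 5, -0.10 without control ECs 1 and 1.18 without control ECs 3. CXCL8, the neutrophil chemokine, was at 243, 406 and 704 against 276, 432 and 931 CPM. CCL20 was at 152, 275 and 513 against 178, 325 and 893 CPM. Its log2 difference of 0.57 (SE 0.53) was -0.32 without senECs 5 and 1.12 without control ECs 3. In all 3 genes the libraries numbered 1 were lowest in either group, and a 2-fold higher level lies within the intervals of IL1B, CXCL8 and CCL20. TNF was at 65.7, 59.9 and 107 CPM with control ECs and at 64.9, 41.9 and 105 CPM with senECs. IL10, an inhibitory cytokine, was at 1.82, 3.56 and 9.45 against 3.72, 7.52 and 12.2 CPM, and the groups overlapped. It was higher in each of the 3 pairs of libraries, of which senECs 5 and control ECs 3 share no number. Of 21 genes of NF-κB subunits and feedback inhibitors 16 were higher (median 0.15), RELA among them at 75.4 to 78.0 against 80.2 to 88.5 CPM. REL had a lower mean with senECs (log2 difference -0.45, SE 0.21), at 104, 131 and 159 against 117, 87.7 and 82.8 CPM. The groups overlapped for REL, which was higher with senECs between the libraries numbered 1. Without senECs 5 the median of these 21 genes was -0.02, with 5 higher, and without control ECs 1 it was -0.02, with 10 higher. Without control ECs 3 it was 0.35, with 19 higher.

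FN1, which encodes fibronectin and belongs to the adhesion list, had the second smallest p among genes with higher levels and no overlap. It was at 19.5, 23.5 and 17.6 CPM with control ECs and at 29.4, 32.5 and 28.8 CPM with senECs, a log2 difference of 0.58 (SE 0.14, 95% interval 0.28 to 0.88, unadjusted p = 0.000622, edgeR adjusted p = 0.728). Every senEC library lay above every control library, and the mono-culture libraries were at 17.2 to 20.0 CPM. With EGCG-treated senECs FN1 was at 25.3, 32.8 and 35.7 CPM. PECAM1, an adhesion molecule of leukocytes and ECs, was at 148, 148 and 130 against 168, 210 and 184 CPM, a log2 difference of 0.40 (SE 0.13). ITGA4, the α4 integrin chain that binds VCAM1, had lower levels (log2 difference -0.26, SE 0.11), and ICAM3 too (-0.63, SE 0.25), with no overlap between the groups. Of the 31 genes of the list 22 were higher and 9 lower, and the median of 0.22 was 0.05 without senECs 5. The reference genes had a median of 0.18.

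**Figure D5:**
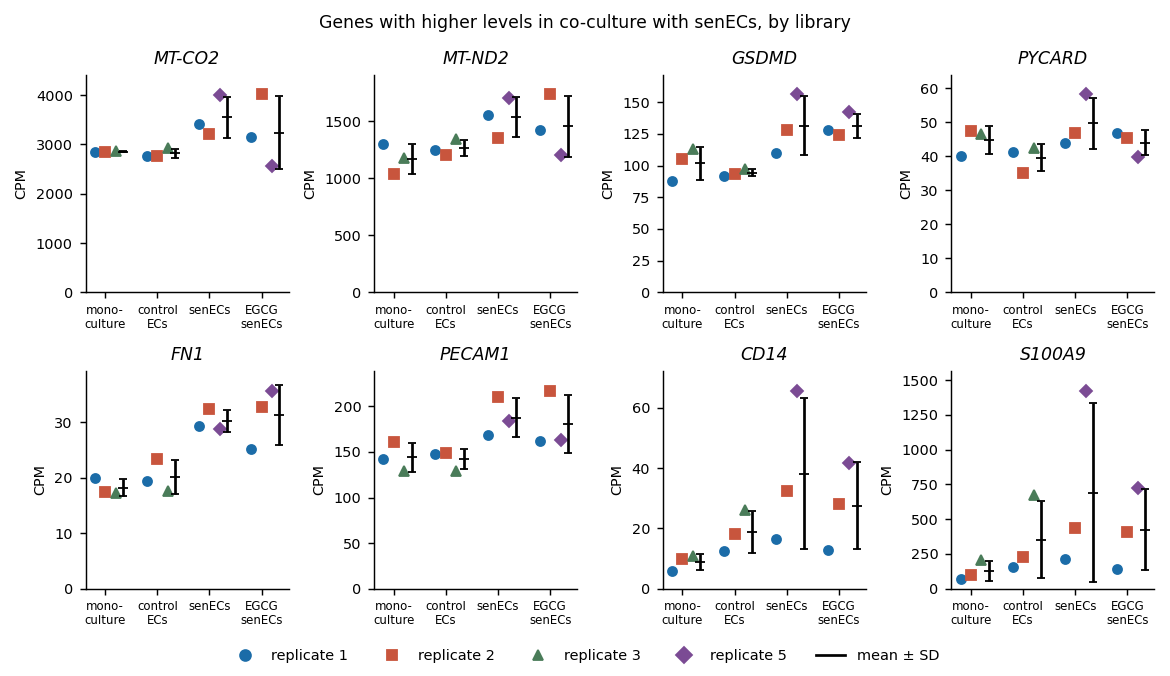
CPM (vertical axes, linear, from 0) of 8 genes with higher mean levels in co-culture with senECs, in each library of the 4 groups, with the mean ± SD of each group (n = 3) in black; point shapes give the replicate number. The senEC points of MT-CO2, MT-ND2, GSDMD, PYCARD, FN1 and PECAM1 lie above all control points, while those of CD14 and S100A9 overlap with the control points and S100A9 varies widely within each group.

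Genes of lipid export, scavenging and the lysosome mostly had higher levels, at 27 of 32 (median log2 difference 0.18). The reference genes had a median of 0.18 too, with 14 of 14 higher, so a median of this size was not particular to the list. CTSB, a lysosomal protease, was at 462, 581 and 714 CPM with control ECs and at 545, 811 and 1231 CPM with senECs, a log2 difference of 0.56 (SE 0.24), and CTSD, another, differed by 0.51 (SE 0.22). PLIN2, the coat protein of lipid droplets, was at 173, 183 and 220 against 217, 243 and 319 CPM, a log2 difference of 0.44 (SE 0.16). ABCA1, which exports cholesterol, had lower levels, at 142, 177 and 215 against 99.1, 168 and 164 CPM. In each of these 4 genes the groups overlapped. Without senECs 5 the median of the list was 0.08.

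Of 37 genes of the NADPH oxidase, which makes superoxide, and of antioxidant defence 31 had higher levels (median 0.20), with 10 at an unadjusted p under 0.05, all higher (2.86% of all genes tested). Among the 14711 genes with a mean of at least 1 CPM 619 did so with higher levels. The median of the reference genes was close, at 0.18. GPX4, which reduces lipid peroxides, was at 166, 160 and 174 CPM with control ECs and at 184, 195 and 249 CPM with senECs, a log2 difference of 0.33 (SE 0.11). HMOX1, heme oxygenase, was at 3.55, 8.92 and 9.95 against 4.70, 18.0 and 25.2 CPM. The 2 groups overlapped for HMOX1 and not for GPX4. Without senECs 5 the median of the list was 0.06, with 25 genes higher and 12 lower.

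Genes that mark senescence or a DNA damage response in the monocytes themselves were near 0 on balance. Of 26 tested targets of p53 12 were higher and 14 lower, with a median of -0.04. CDKN1A, which encodes p21, was at 46.0, 50.8 and 57.2 CPM with control ECs and at 40.3, 39.8 and 64.8 CPM with senECs, a log2 difference of -0.09 (95% interval -0.44 to 0.26). CDKN2A and CDKN2B had 0 counts in all 12 libraries, which allows up to 0.194 CPM in the smallest library for counting error alone. BAX, the pro-apoptotic partner of BCL2, had the smallest p of the list (log2 difference 0.32, SE 0.12) and no overlap. It was the 1 gene of the list that was higher without overlap (5.31% of all genes tested), and 3 were lower without overlap (5.66%). Interferon-stimulated genes split into 19 higher and 17 lower, and the 40 genes of DNA replication had log2 differences between -0.17 and 0.21, all with intervals within 2-fold.

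The other lists lay closer to the median of all genes or changed with 1 library. Of 22 genes of antigen presentation 18 were higher (median 0.23, and 0.01 without senECs 5). CIITA, the switch of class II genes, was at 3.36, 3.87 and 2.67 against 1.81, 2.72 and 1.51 CPM, and the groups overlapped. Of 28 immediate early genes 20 were higher (median 0.06), and FOSL1, an AP-1 subunit, was at 15.3, 18.3 and 23.1 against 23.2, 25.9 and 27.7 CPM with no overlap. HERC5, which attaches ISG15 to proteins, had the smallest p of the interferon list (log2 difference 0.53, SE 0.21) and no overlap either. The medians were 0.06 for Toll receptors and adaptors, 0.02 for STAT3 response genes, 0.21 for IL-4 and GM-CSF response genes (-0.17 without senECs 5), 0.13 for the unfolded protein response, 0.09 for heat shock genes, 0.12 for glycolysis and 0.09 for mitosis. The IL-4 and GM-CSF median was 0.40 without control ECs 3.

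Outside the lists, the genes of highest rank among those with no overlap were the following. With higher levels these were MRPL23, a mitochondrial ribosomal protein, at 20.3, 15.2 and 18.3 against 25.2, 29.9 and 25.3 CPM, OSGIN1, PWP2, PLP2, NKG7 and the pseudogene AL450405.1, with log2 differences from 0.41 to 1.64. PWP2, a factor of ribosome assembly, had a log2 difference of 0.64 without senECs 2, which was at 12.1 CPM, against 3.87 and 2.12 CPM in the other senEC libraries. With lower levels they were CHIC1, ATAD2B, AP000866.6, AC000123.3, AL133243.4 and TMEM14EP, with log2 differences from -2.64 to -0.51. The value of -2.64 is that of AL133243.4, a gene of few counts at 1.06, 1.71 and 0.445 against 0.206, 0.231 and 0.0604 CPM. TMEM14EP differed by -2.05, and by -1.15 without control ECs 2, which was at 5.32 CPM against 1.39 and 1.56 CPM in the other control libraries. CHIC1 was at 9.16, 10.4 and 10.3 against 6.66, 4.74 and 6.47 CPM. ATAD2B, a bromodomain protein of chromatin, was at 44.0, 49.9 and 47.8 against 39.8, 30.4 and 29.6 CPM.

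Histone and nuclear RNAs had lower levels with senECs, and here control ECs 2 was far above the other libraries. Of the 19 replication-dependent histones tested 18 were lower, with a median log2 difference of -1.72, which was 0.05 without control ECs 2. MALAT1 was at 413, 1300 and 360 CPM with control ECs and at 363, 328 and 203 CPM with senECs, a log2 difference of -1.21 that was -0.39 without that library. FP236383.2, a non-coding locus of chromosome 21, went from -5.11 to 0.23. RN7SL2, the RNA of the signal recognition particle, was at 486, 632 and 187 against 273, 207 and 219 CPM, so it was high in control ECs 1 and 2. It was the 1 gene called when control ECs 3 was left out.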

How the data were processed

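RNA of LPS-stimulated THP1 cells was sequenced by the study. The authors deposited unnormalized counts by gene symbol, made from reads aligned to hg38 with HISAT2 per the submitters' processing notes; the counting program is not given in the sources used here. Grouping followed the labels, and 4 columns that matched no labelled sample were not used, 1 of them named like the senEC columns and not analysed here. Of 58735 rows, 23968 had no count in the 12 libraries, and the 1741 rows that shared 175 symbols were each kept as a gene of its own. Gene lengths and positions came from GENCODE release 29.

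edgeR 4.0.16 (R 4.3.3; TMM, quasi-likelihood test, Benjamini-Hochberg adjustment, threshold 0.05) was fitted on 12 libraries in 1 model with a term for group only, over 25873 genes with at least 10 counts. SE is the absolute log2 difference over √F. CPM values use TMM library sizes, and differences between single libraries use log2(CPM + 2). DESeq2 1.42.0 was an alternative. Replicates of a group differed beyond counting noise (chi-square per degree of freedom 9.23 to 33.7). Alternatives were other filters, DESeq2 size factors, 6 libraries only, a length offset, a replicate term and each library left out. The scripts were tested on simulated data. Figures used Python 3.11.15 and matplotlib 3.10.9.

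The comparison, the 30 gene lists and the tests were chosen with earlier results of these data known. Genes named are, by rule, at 1 CPM or more in the higher group: the 8 of smallest unadjusted p without overlap in each direction, the member of smallest p of each list, the 3 of largest change in each direction among genes called with a replicate term, and the 5 largest differences in CPM in each direction (levels only). All other genes were named after their values were seen. A few genes chosen by the rule are not reported here.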

Additional observations from a re-analysis of the deposited data

How the results depend on the processing

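The count of 0 called genes held with DESeq2, DESeq2 size factors, edgeR's own filter, at least 10 counts in every library, only the 6 libraries compared and a gene length offset, and was 0 to 1 with each of the 12 libraries left out. Without a filter 114 genes were called, each with at least 10 counts in total and so tested with the filter too; there edgeR replaced each gene's own dispersion by the trend (prior degrees of freedom infinite, against 11.2 with it). The number at an unadjusted p under 0.05 was 1063 with at least 10 counts in every library and 717 to 2910 with a library left out. The number of intervals within 2-fold stayed between 11734 and 15188 in all alternatives.

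A replicate block, a paired term for the replicate number, gave 153 calls (0.591% of genes, 63 higher and 90 lower), with prior degrees of freedom of 1195. Against 11.2 in the main model, this means that here too each gene's own dispersion was nearly replaced by the trend. The parts of the paired term and of this prior in the 153 calls were not tested. The numbers were not taken as pairs in the main model. The groups share only 1 and 2, and the labels do not say what a number marks. Deviations from the group means correlated at 0.46 and 0.27 across 14397 genes within numbers 1 and 2. Between senECs 5 and control ECs 3 they correlated at 0.53. Each value was the highest for its senEC library, as a hint from the data and not from the labels. Of the 90 lower calls 48 (53.3%) had their highest value of the 12 libraries in control ECs 2, as did 12.2% of all genes tested. Alternatives chosen after seeing the data gave, with the replicate block, 9 calls without control ECs 2 (1042 genes at an unadjusted p under 0.05; 5 of the 9 shared with the 153), 110 with replicates 1 and 2 only (87 shared), 104 with a robust dispersion prior and 61 with DESeq2 (18 shared); of the 81 genes considered 43 were among the 153, such as INSIG1, STARD4, FN1, GSDMD, CD14 and S100A9, and SREBF2 was not. The robust prior without the block called 0. The block fits with 9 and 110 calls had infinite prior degrees of freedom, and the block fit with 104 calls had 1195. The 81 genes were picked from these same libraries, some of them from the block calls themselves. The number 43 is therefore no separate support for them.

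Of the 81 genes considered 75 kept their direction in every alternative that tested them. The others reversed only with a library left out, over which the log2 difference ranged from -5.81 to 0.23 for FP236383.2, -1.92 to 0.11 for ANGPT2, -0.62 to 2.61 for S100A8, -0.13 to 1.83 for S100A9, -0.32 to 1.12 for CCL20 and -0.78 to 1.18 for IL1B; the cause was not tested. With 3 libraries per group and 17441273 to 22092600 counts, differences under 2-fold in genes below 1 CPM were mostly not bounded.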
